A study of Mus musculus with 103 samples.

Results

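The medial nasal prominence and the lateral nasal eminence were compared at embryonic day E10.5 in 8 of the 103 laser-captured samples of an atlas of the early mouse face. The 4 libraries of the medial nasal prominence and the 4 of the lateral nasal eminence were chosen by their titles. All came from embryos of CD1, an outbred strain, with no treatment or allele in their labels, and the only labelled difference between the groups is the captured region. Amplified RNA of each sample was hybridised to 1 Affymetrix whole-transcript array. The deposited value of a probe set is a ratio to a baseline set by the authors, and its log2 is used throughout. A log2 ratio compares libraries for 1 gene and gives no level between genes. The labels do not tie samples to embryos, so libraries may share an embryo and the p-values may be too small. The number of arrays limits the precision of every value.

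The medial and lateral nasal prominences are paired swellings on either side of the nasal pit. Their mesenchyme, largely of cranial neural crest origin, lies beneath surface ectoderm and beside the forebrain. The medial prominences later form the nasal tip, the philtrum and the front of the palate, and the lateral prominences form the sides of the nose. Homeobox and T-box transcription factors mark regions of this mesenchyme, and WNT, FGF, BMP, Hedgehog and retinoic acid signals pass between it and the epithelia around it.

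The arrays spread unequally. The SD of log2 ratios over all genes was 0.793, 1.13, 0.586 and 0.614 in medial libraries 1 to 4, against 0.704, 0.812, 0.431 and 0.929 in lateral libraries 1 to 4. In a set of 50 proteasome and translation initiation factor 3 (eIF3) subunit genes, which most cells express and which were chosen after values were seen, the median log2 ratio was -1.375, -2.81, -0.608 and -0.852 in the medial libraries, against -0.436, -0.844, -0.025 and -0.76 in the lateral libraries. Medial library 2, the widest of the 8 arrays, was lowest for these genes. Lateral library 3 correlated at 0.068 to 0.091 with the other lateral libraries across genes, while the other lateral pairs correlated at 0.468 to 0.655 and the medial pairs at 0.549 to 0.8. Genes are not independent replicates, so these correlations are descriptions. Where the call of a named gene ended without medial library 2 or lateral library 3, the value without that library is given.

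**Figure D1:**
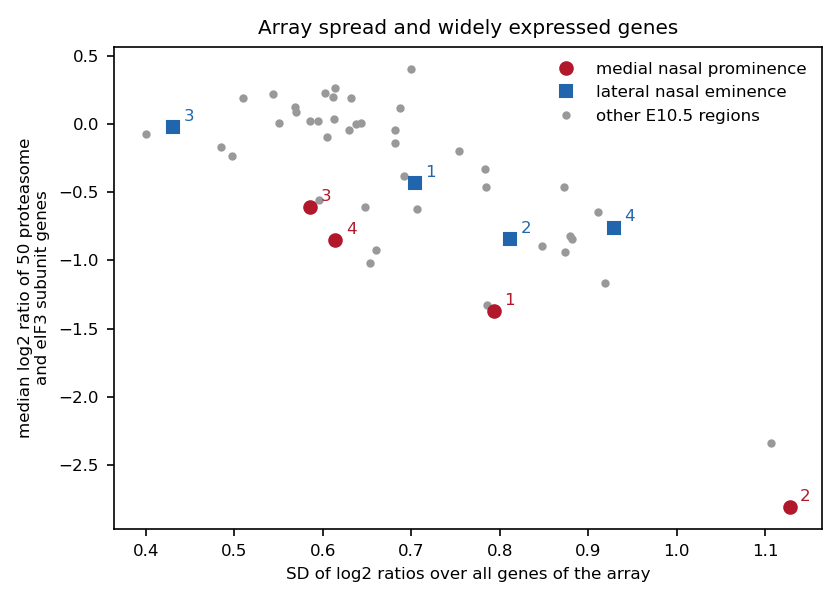
Each point is 1 library of E10.5, with the SD of its log2 ratios over all genes on the x axis and the median log2 ratio of 50 proteasome and eIF3 subunit genes on the y axis. Numbers name the medial (circles) and lateral (squares) libraries, and small points are the other E10.5 regions. Medial library 2 lies lowest and farthest to the right, at -2.81 and 1.13, and lateral library 3 lies at -0.025 and 0.431.

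Marker genes were compared with the labelled tissue, and lateral library 3 stood apart from the other 7 in the epithelial ones. Twist1, a transcription factor of head mesenchyme, stood at 2.00, 1.45, 2.46 and 2.70 in the medial libraries, against 2.43, 2.54, 2.55 and 2.49 in the lateral libraries. The mean of 10 cranial mesenchyme markers, Twist1 among them, varied between libraries. It was 0.783, 0.38, 1.488 and 1.506 in the medial libraries, against 1.191, 0.773, 1.834 and 0.355 in the lateral libraries. Among these markers, Prrx1 was at -0.16 in lateral library 4 and Foxc1 at -0.75 in medial library 2. Sox2, a marker of neural and placodal epithelium, stood at -4.04, -3.40, -3.59 and -3.66 in the medial libraries, against -3.66, -3.93, -0.97 and -3.79 in the lateral libraries. The epithelial gene Epcam was at -0.68 to -1.29 in the medial libraries, against -0.18, -0.95, 1.65 and -1.14 in the lateral libraries. Lateral library 3 was thus the highest of the 8 for both epithelial genes. In bulk samples, fewer cells of a type and less RNA per cell cannot be told apart. These markers tell mesenchyme from epithelium and do not separate the nasal prominences from the jaw arches. The region labels of both groups were therefore taken as given.

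The number of genes that separated the prominences was small and depended on the fit. Of 19938 genes tested with limma, 12 were higher in the medial prominence (0.0602%) and 11 were lower (0.0552%) at a Benjamini-Hochberg adjusted p under 0.05, which is the meaning of "called" here. At an unadjusted p under 0.05 there were 1759 genes, or 8.82%. All medial libraries stood above all lateral libraries for 309 genes (1.55%) and below them for 434 (2.18%), or 3.73% together. The fit pooled the spread over 22 groups, and a fit of these 8 libraries alone called 0 genes, with 1137 at an unadjusted p under 0.05. The counts moved with the fit, to 27 higher and 16 lower after quantile normalization, 45 and 57 with array weights, 29 and 60 with the array SD as a covariate, and 100 and 170 with the median of the widely expressed genes as a covariate, a setting chosen after the data were seen.

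Tbx3 and Alx1, the genes given as markers of this pair, changed in opposite directions. Both had been proposed with earlier results of these data known. Tbx3, a T-box repressor best known from limb and mammary development, stood at 1.09, 1.90, 1.41 and 1.42 in medial libraries 1 to 4, against -0.22, 0.25, -0.36 and 0.05 in lateral libraries 1 to 4. The groups did not overlap, and the lowest medial value exceeded the highest lateral value by more than the range of the lateral libraries. The difference was 1.52 ± 0.27 (SE) on the log2 scale, or 2.87-fold, with an adjusted p of 0.00122. It was 1.37 without medial library 2 (adjusted p = 0.0249) and 1.42 without lateral library 3 (adjusted p = 0.00867).

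Alx1, a paired-type homeobox gene needed for frontonasal development, stood at 1.41, 0.46, 1.07 and 4.63 in the medial libraries, against 4.69, 5.47, 5.71 and 4.99 in the lateral libraries. All lateral libraries were high, and medial library 4 came close to the lowest of them. The difference was -3.32 ± 0.61 (SE), lower in the medial prominence, with an adjusted p of 0.00156. It was -4.23 without medial library 4 (adjusted p = 1.54e-05) and -2.85 without medial library 2 (adjusted p = 0.0404). Without medial library 2 and lateral library 3 together it was -2.68, and the adjusted p of 0.0518 missed the threshold.

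Mab21l2 and Dlx1, both regulators of development, were also higher in the medial prominence. Mab21l2, a gene required for eye development in mice, stood at 2.55, 2.89, 3.66 and 4.16 in the medial libraries, against 0.01, 0.33, -0.26 and 0.56 in the lateral libraries. Every medial library was well above every lateral one. The difference was 3.15 ± 0.69 (SE), or 8.90-fold, with an adjusted p of 0.0212, and 0.0577 without lateral library 1. Dlx1, a distal-less homeobox gene of the jaw arches and forebrain, stood at 1.22, 2.47, 0.55 and 2.02 in the medial libraries, against -0.37, 0.00, -0.34 and -0.07 in the lateral libraries. Its groups did not overlap, with a difference of 1.76 ± 0.40 (SE) and an adjusted p of 0.0288. The Dlx1 call ended without medial library 2 (1.46, adjusted p = 0.229), medial 4 (0.0532), lateral 1 (0.0789) or lateral 4 (0.0572).

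Dnm3os, a long noncoding RNA transcribed from the strand opposite Dnm3, was higher in the medial prominence. It is the precursor of microRNAs of the miR-199 and miR-214 families, and mice that lack it have skeletal defects. In RefSeq's GRCm38.p6 it lies at chr1:162217623-162225550 and holds the hairpins Mir199a-2 and Mir214. The mature microRNAs that these hairpins give are printed because the array measured their host transcript and not the mature forms. Capitals mark the seed, bases 2 to 8, and the 4 seeds differ.
mmu-miR-199a-5p: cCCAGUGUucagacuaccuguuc
mmu-miR-199a-3p: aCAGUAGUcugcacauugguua
mmu-miR-214-5p: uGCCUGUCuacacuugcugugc
mmu-miR-214-3p: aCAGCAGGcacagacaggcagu

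Dnm3os stood at 1.54, 4.31, 3.87 and 3.67 in the medial libraries, against 0.92, 1.36, 2.26 and 0.81 in the lateral libraries. Medial library 1 fell among the lateral values, so the groups overlapped, while the other medial libraries were above all lateral ones. The difference was 2.01 ± 0.35 (SE), or 4.03-fold, with an adjusted p of 0.000711. It was 2.61 without medial library 1 (adjusted p = 1.56e-07), 1.69 without medial library 2 and 2.32 without lateral library 3. Probe sets for the other miR-199 hairpins, Mir199a-1 and Mir199b, differed by -0.43 and -0.14 and were not called.

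Tmem38b and Ucma were higher in every medial library than in any lateral one. Tmem38b, which encodes a cation channel of the endoplasmic reticulum, stood at 3.98, 5.87, 4.11 and 1.76 in the medial libraries, against -0.66, 0.16, 1.01 and 0.38 in the lateral libraries. Its difference was 3.71 ± 0.79 (SE), with an adjusted p of 0.0187. The mean of its probe sets gave 1.78 (adjusted p = 0.142), and the call also ended without medial library 2 (3.07, adjusted p = 0.174) or lateral library 1 (3.42, adjusted p = 0.0749). The difference was 4.44 without medial library 4. Ucma, which encodes a secreted protein of cartilage matrix, stood at 0.74, 0.89, 0.48 and 1.57 in the medial libraries, against 0.16, 0.16, -0.07 and 0.40 in the lateral libraries. Its difference of 0.76 ± 0.13 (SE) had an adjusted p of 0.000711 and remained called whichever of the 8 libraries was left out. The limma fit of the 8 libraries alone gave an adjusted p of 0.828.

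The other named genes called higher differed by 0.39 to 0.67. They were Nrip1, a corepressor of nuclear receptors, Lrrc58, Ppp1r9a, an actin-binding protein that targets a phosphatase, Rnase2b, a member of the eosinophil ribonuclease family, and Zfp872, a zinc finger gene. Lrrc58 was the tightest of them, with 0.60, 0.50, 0.55 and 0.55 in the medial libraries, against -0.04, 0.10, 0.03 and -0.16 in the lateral libraries. Its difference was 0.57 ± 0.12 (SE), with an adjusted p of 0.0212. Rnase2b was separated by little, with -0.008 in medial library 3 against -0.013 in the highest lateral library, and its paralogs are close enough that the probe set may read several of them. The Rnase2b difference of 0.43 (adjusted p = 0.0013) became 0.29 without medial library 2 (adjusted p = 0.108), and the call ended. Without that library Nrip1 (0.51, adjusted p = 0.311) and Zfp872 (0.38, adjusted p = 0.121) also missed the threshold. The calls of Nrip1, Zfp872, Lrrc58 and Ppp1r9a ended without at least 3 of the 8 libraries, each taken out alone, with adjusted p up to 0.311, 0.267, 0.082 and 0.134. The remaining call, the transcript 4930483J18Rik, which the naming rule passed over, differed by 0.81 and had the smallest adjusted p of the comparison, 3.93e-05.

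Gsc had the largest difference of the genes called lower. Gsc encodes goosecoid, a paired-type homeobox repressor needed for parts of the nasal and jaw skeleton in mice. It stood at 0.42, -0.98, 0.56 and 3.39 in the medial libraries, against 5.16, 5.25, 3.48 and 5.06 in the lateral libraries. Medial library 4 was high, as it was for Alx1, and lateral library 3 was low, and these 2 values almost met. The difference was -3.89 ± 0.83 (SE), or 14.8-fold lower in the medial prominence, with an adjusted p of 0.0187. The Gsc call ended after quantile normalization (-3.38, adjusted p = 0.0715) and without medial library 1 (0.058), medial 2 (-3.28, 0.15), lateral 1 (0.0577) or lateral 4 (0.055). The difference was -4.74 without medial library 4 and -4.31 without lateral library 3.

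The proximal promoters of Gsc and Mab21l2 are printed because these developmental genes differed most in opposite directions among those with a RefSeq promoter entry. Each runs 250 bases before to 50 bases after the gene's start in GRCm38.p6, on the minus strand, with TATAAA in capitals.
Gsc, chr12:104473187-104473486: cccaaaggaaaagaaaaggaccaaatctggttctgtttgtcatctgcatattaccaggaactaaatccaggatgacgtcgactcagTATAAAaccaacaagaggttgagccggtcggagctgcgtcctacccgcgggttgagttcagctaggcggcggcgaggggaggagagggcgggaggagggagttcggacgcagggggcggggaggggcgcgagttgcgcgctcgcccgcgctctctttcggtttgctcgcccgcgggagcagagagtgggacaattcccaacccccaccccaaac
Mab21l2, chr3:86548234-86548533: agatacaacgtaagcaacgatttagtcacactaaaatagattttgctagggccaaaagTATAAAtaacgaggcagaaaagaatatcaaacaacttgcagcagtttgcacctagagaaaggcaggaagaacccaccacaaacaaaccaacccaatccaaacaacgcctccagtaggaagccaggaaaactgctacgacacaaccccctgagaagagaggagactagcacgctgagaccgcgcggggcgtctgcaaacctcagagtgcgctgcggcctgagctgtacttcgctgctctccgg

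The Gsc window held 25 CpG dinucleotides and the Mab21l2 window 14, against a median of 7 (quartiles 3 to 20) over 32841 promoters. TATAAA lay 164 bases before the start of Gsc and 192 before that of Mab21l2. Of the 35 named genes, 27 had a promoter that could be searched for 4 motifs. TATAAA, searched on the gene's own strand alone, was found in 6 of the 27, against 8.32% of all promoters searched the same way. On both strands, the T-box half-site AGGTGT was found in 2, against 13.7%. The homeodomain core TAATTA was found in 1, against 5.29%, and the paired-class palindrome, TAAT and ATTA with 3 bases between them, in 0, against 0.487%. A match is a run of letters and not a bound site.

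Cxcl13 and Hpgd were lower in the medial prominence and uneven among lateral libraries. Cxcl13, a chemokine that attracts B lymphocytes, stood at -0.21, 0.11, 0.13 and 0.09 in the medial libraries, against 5.47, 0.15, 5.02 and 0.48 in the lateral libraries. It was high in lateral libraries 1 and 3 and near the medial values in lateral 2 and 4. The SD was 0.16 over the medial and 2.86 over the lateral libraries. The difference of -2.75 ± 0.46 (SE) had an adjusted p of 0.000531, with an SE from the spread pooled over 22 groups. In the limma fit of the 8 libraries alone the adjusted p of that difference was 0.862. The values that follow are from the pooled fit. The difference was -1.85 without lateral library 1 (adjusted p = 0.0407) and -2.0045 without lateral library 3 (adjusted p = 0.0155).

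Hpgd, the dehydrogenase that inactivates prostaglandins, stood at 0.12, -0.17, -0.13 and 0.07 in the medial libraries, against 0.72, 0.93, 4.44 and 0.77 in the lateral libraries. The groups did not overlap, and lateral library 3 was far above the others. The difference was -1.75 ± 0.33 (SE), with an adjusted p of 0.00237. Without lateral library 3 it was -0.84, and the adjusted p of 0.0781 missed the threshold.

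Banf1 and Polr2d, which serve every cell type, were lower in the medial prominence, where the proteasome and eIF3 genes of the same arrays also had medians of -2.81 to -0.608, against -0.844 to -0.025 in the lateral libraries. Banf1, which encodes a chromatin-binding protein of the nuclear envelope, averaged -1.05 ± 1.16 in the medial libraries and 0.15 ± 0.15 in the lateral libraries (SD, n = 4 each). Probe sets of the named genes are mostly numbered in runs by chromosome. That of Banf1 falls far from that of Ccdc172 on the same chromosome, so it may read a similar sequence elsewhere, which was not tested. Polr2d, a subunit of RNA polymerase II, stood at -2.80, -5.35, -1.50 and -1.65 in the medial libraries, against -0.30, -1.57, 0.03 and -0.68 in the lateral libraries. Medial library 2 was the lowest for both genes. The Banf1 difference was -1.21 (adjusted p = 0.00282) and the Polr2d difference -2.20 (adjusted p = 0.0222). Without medial library 2 they were -0.65 (adjusted p = 0.233) and -1.35 (adjusted p = 0.412). The Polr2d call also ended without lateral library 3 (-1.98, adjusted p = 0.0527), medial 1 (0.0549), lateral 1 (0.0749) or lateral 4 (0.055). With the median of the widely expressed genes as a covariate they were -0.81 (adjusted p = 0.0122) and -1.41 (adjusted p = 0.0514).

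The other named genes called lower differed by small amounts. They were Gng4, a G protein gamma subunit (-0.69, adjusted p = 0.0277), Ifi205, an interferon-activated gene of a family with close copies (-0.41, adjusted p = 0.0199), and Ccdc172, a coiled-coil gene (-0.38, adjusted p = 0.0103). Without medial library 2, Gng4 was at -0.58 (adjusted p = 0.202) and Ifi205 at -0.38 (adjusted p = 0.0718), and neither was called. Without lateral library 4, none of the 3 was called (adjusted p = 0.136 for Gng4, 0.151 for Ifi205 and 0.117 for Ccdc172). Passed over by the naming rule but also called were the microRNA gene Mir378a (-0.71) and the transcript 6330407A03Rik (-0.40). Just outside the threshold, Tex29 had an adjusted p of 0.05018 at 0.55, Fam20a 0.05003 at -1.18, and Prelid1 0.05018 at -1.56. Each rested on 1 library, with Tex29 at 0.25 without medial library 1 (adjusted p = 0.576), Fam20a at -0.43 without lateral library 2 (adjusted p = 0.493) and Prelid1 at -0.46 without medial library 2 (adjusted p = 0.833). Of the 20 named genes that were called, 5 remained called whichever library was left out, namely Dnm3os, Tbx3, Ucma, Cxcl13 and Alx1. Those fits still pooled the spread over all groups, so they do not show whether a call rests on that pooling. In the limma fit of the 8 libraries alone none of the 5 was called, with adjusted p from 0.322 (Tbx3) to 0.862 (Cxcl13). Ucma and Cxcl13 also lost their calls in the fit of the E10.5 groups alone.

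**Figure D2:**
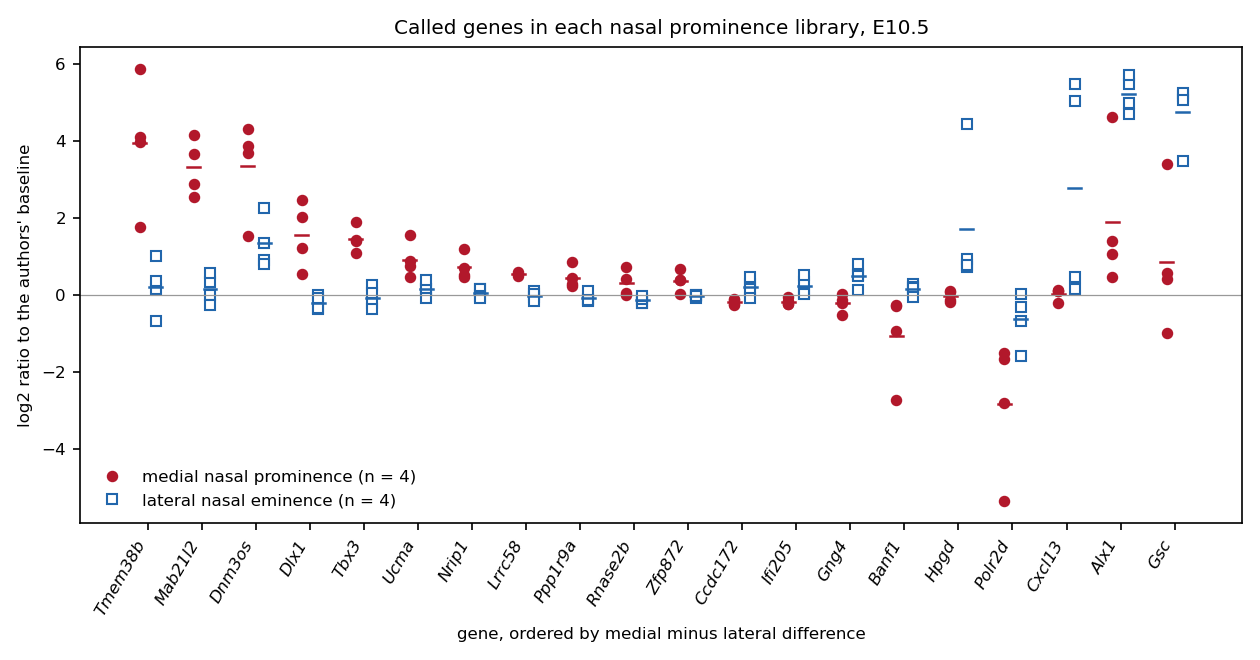
The y axis gives the log2 ratio to the authors' baseline of each named called gene in each medial (filled circles) and lateral (open squares) library, with genes ordered along the x axis by their difference and 4 libraries a group. Gsc and Alx1 show 1 high medial library, at 3.39 and 4.63, and Cxcl13 shows 2 high lateral libraries, at 5.47 and 5.02.

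Across the 12 regions of E10.5, the genes called higher tended to have their highest mean in the medial prominence. It ranked 1st for Tbx3, Mab21l2, Dnm3os, Tmem38b, Ucma, Nrip1, Lrrc58, Ppp1r9a, Rnase2b and Zfp872 and 3rd for Dlx1. These ranks use the medial libraries that the comparison used, and they are given as a description. Tbx3 averaged 1.45 ± 0.33 in the medial prominence (SD, n = 4), and the next region, the ectoderm labelled mandibular arch, averaged 0.36 ± 0.29 (SD, n = 4). Mab21l2 was less restricted, at 3.31 ± 0.73 (SD, n = 4) in the medial prominence and 2.69 ± 0.66 (SD, n = 5) in the maxillary arch, neighbours in that order that differed by less than either SD. Dlx1 averaged 1.56 ± 0.85 in the medial prominence, 1.81 ± 1.19 in the neuroepithelium under it and 1.77 ± 1.23 in the ectoderm labelled mandibular arch (SD, n = 4 each). At E9.5 the maxillary arch averaged 3.159 ± 0.565 for Mab21l2 and 1.395 ± 0.774 for Dlx1 (SD, n = 5 each), near the medial prominence means. The E9.5 mandibular arch was also near them, at 3.699 ± 0.414 for Mab21l2 and 1.586 ± 0.55 for Dlx1 (SD, n = 5 each).

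Genes called lower were shared with other regions to different degrees. Alx1 averaged 5.34 ± 0.26 in the libraries labelled mandibular arch and 5.21 ± 0.46 in the lateral eminence (SD, n = 4 each), which differed by less than either SD, and the medial prominence ranked 3rd at 1.89 ± 1.86 (SD, n = 4). The label of those libraries was taken as given and was not checked here against markers of the arch, so these values are named by the label alone. Gsc was highest in the lateral eminence at 4.74 ± 0.84 and averaged 3.36 ± 1.35 in the libraries labelled mandibular arch (SD, n = 4 each), while the medial prominence ranked 7th at 0.85 ± 1.83 (SD, n = 4). Cxcl13 averaged at most 0.20 in any E10.5 region other than the lateral eminence. Hpgd averaged 1.72 ± 1.82 in the lateral eminence and 0.71 ± 0.53 in the neuroepithelium under the medial prominence (SD, n = 4 each). The libraries labelled mandibular arch averaged 0.67 ± 0.62 for Hpgd (SD, n = 4). The lateral mean of Hpgd was raised by lateral library 3 at 4.44, with the other lateral libraries at 0.72 to 0.93.

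**Figure D3:**
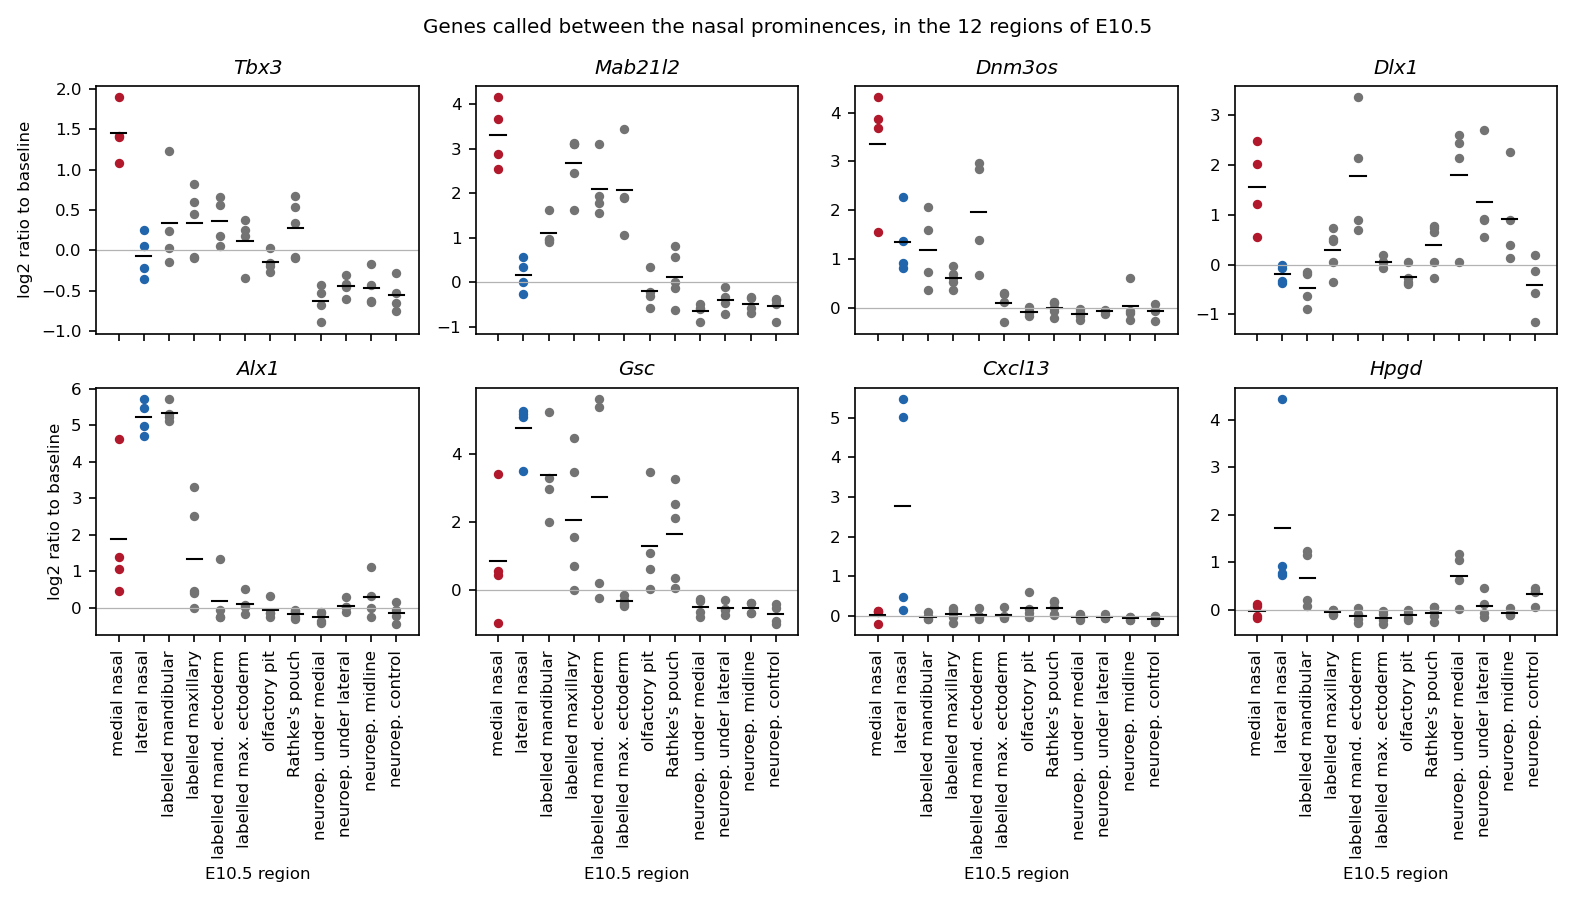
Each panel gives the log2 ratio to baseline of 1 gene in every library of the 12 E10.5 regions, with the medial prominence first, the lateral eminence second and a bar at each mean. The medial libraries of Tbx3 lie at 1.09 to 1.90, and the Alx1 values of the lateral eminence and of the libraries labelled mandibular arch lie together, with means of 5.21 and 5.34.

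Among the lists of developmental regulators, 4 genes in all were called. Of 15 measured frontonasal regulators, 0 were higher and 1, Alx1, was lower, where 0.0602% of all genes were called higher and 0.0552% lower. The other members did not pass. Prrx1, a paired-related gene of limb and face mesenchyme, was at 2.40, 2.66, 4.36 and 4.08 in the medial libraries, against 1.79, 0.75, 3.74 and -0.16 in the lateral libraries (difference 1.84, adjusted p = 0.158). Tfap2a, a crest and ectoderm factor whose loss causes facial clefts in mice, was at -0.04, -0.07, 0.18 and 0.16 in the medial libraries, against 0.93, 0.51, 1.58 and 0.44 in the lateral libraries. The Tfap2a groups did not overlap, and its difference of -0.81 had the same adjusted p of 0.158. Of 9 T-box genes, 1 was higher, Tbx3, and 0 were lower, and the other 8 differed by -0.45 to 0.20.

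The arch homeobox and bHLH list had 1 of 16 members called higher, Dlx1, and 1 lower, Gsc, against 0.0602% and 0.0552% of all genes. Its median difference was 0.43, against -0.033 over all genes, and all medial libraries were above all lateral ones for 5 members, against 1.55% of all genes. Besides Dlx1 these were Barx1, Lhx6, Pitx1 and Shox2, homeobox genes of jaw and palate mesenchyme, which are named here after their values were seen. Barx1 differed by 1.99 (adjusted p = 0.0816) and Lhx6 by 1.11 (adjusted p = 0.0597). The LIM homeobox gene Lhx8, needed for palate formation in mice, was at 1.05, 0.29, 1.71 and 4.16 in the medial libraries, against -0.13, -0.13, -0.47 and 3.09 in the lateral libraries. Library 4 was the highest of each group, and the Lhx8 difference of 1.21 was not called (adjusted p = 0.764). It was 0.43 without medial library 4 and 2.05 without lateral library 4.

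Foxc1, a forkhead gene of head mesenchyme, had the largest difference of its list without a call. It stood at -0.05, -0.75, 0.56 and 1.61 in the medial libraries, against 3.64, 2.48, 3.35 and 0.73 in the lateral libraries. Lateral library 4 fell among the medial values, and the difference of -2.21 ± 0.64 (SE) had an adjusted p of 0.115. None of 12 forkhead genes was called by limma, with 1 higher and 1 lower at an unadjusted p under 0.05, against 8.82% of all genes in either direction. The 12 Meis, Pbx and Irx genes also gave 0 calls, with 0 at an unadjusted p under 0.05, and the cofactor gene Meis2 differed most, at 0.80. Of 11 genes in the list of Eya and Dach genes and their homeobox partners, 0 were called and 0 had an unadjusted p under 0.05, and Six5 differed most, at -0.63.

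Signalling genes gave 0 calls in limma in each of the WNT, BMP, FGF, Hedgehog and retinoic acid lists. At an unadjusted p under 0.05 there were 2 of 20 BMP, 2 of 20 FGF, 0 of 13 Hedgehog and 1 of 19 retinoic acid genes. Of 35 WNT genes, 3 were higher and 2 lower at an unadjusted p under 0.05, against 8.82% of all genes in either direction. All medial libraries were above all lateral ones for 5, against 1.55% of all genes, and below them for 1, against 2.18%. The 5 were Wnt11, Rspo3, Dkk1, Axin2 and Lef1, and the 1 was the receptor gene Fzd1, all named after their values were seen. Rspo3, a secreted enhancer of WNT signalling, was at 1.00, 1.02, 2.23 and 1.32 in the medial libraries, against -0.33, 0.52, 0.00 and 0.18 in the lateral libraries (difference 1.30, 95% interval 0.34 to 2.26, adjusted p = 0.315). Axin2, a feedback target of WNT signalling, was at 0.40, 0.71, 0.62 and 0.82 in the medial libraries, against 0.22, 0.09, 0.01 and -0.17 in the lateral libraries, and its difference of 0.60 had an adjusted p of 0.0811. The WNT list's median difference was 0.047.

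The BMP and FGF lists had medians of 0.012 and -0.025. Id3, a target of BMP signalling, was at -0.81, -3.55, -0.39 and 0.00 in the medial libraries, against -0.04, 0.03, 0.09 and 0.51 in the lateral libraries (difference -1.33, adjusted p = 0.0688). Its lowest value was again that of medial library 2, and without it the difference was -0.55 (adjusted p = 0.845). The ligand Bmp4 spanned 1.87 to 3.71 in the medial libraries and 0.90 to 3.48 in the lateral libraries, with a difference of 0.14. Fgf10, a mesenchymal ligand, was at 0.71, 0.36, 2.66 and 1.24 in the medial libraries, against 0.12, 0.24, 0.35 and 0.27 in the lateral libraries, without overlap (difference 1.00, adjusted p = 0.382). Etv4, a transcriptional target of FGF signalling, differed by -1.13 (adjusted p = 0.533).

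Of 19 retinoic acid genes, Crabp2 differed most, at -1.16 (adjusted p = 0.246). This retinoic acid binding protein was at -0.55, -3.15, -0.22 and -0.13 in the medial libraries, against 0.04, 0.01, 0.55 and -0.01 in the lateral libraries. The groups did not overlap, and medial library 2 was far below the rest. Without it the difference was -0.44. Of 13 Hedgehog genes, the co-receptor Cdon differed most, at 1.08 (adjusted p = 0.876), and its medial values of 3.28 to 4.80 lay within or near the lateral range of 0.60 to 4.28. Without lateral library 1, the lowest of them, the Cdon difference was 0.32. The pathway's target genes Ptch1 and Gli1 differed by 0.04 and 0.02. The 24 orofacial clefting genes, 25 matrix genes and 30 guidance genes gave 0 calls in limma. At an unadjusted p under 0.05 there were 2, 0 and 2 of them, against 8.82% of all genes. The list medians were 0.035, -0.021 and 0.025, and the largest differences of the last 2 lists were Lum at 0.78 and Efna1 at -1.04.

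**Figure D4:**
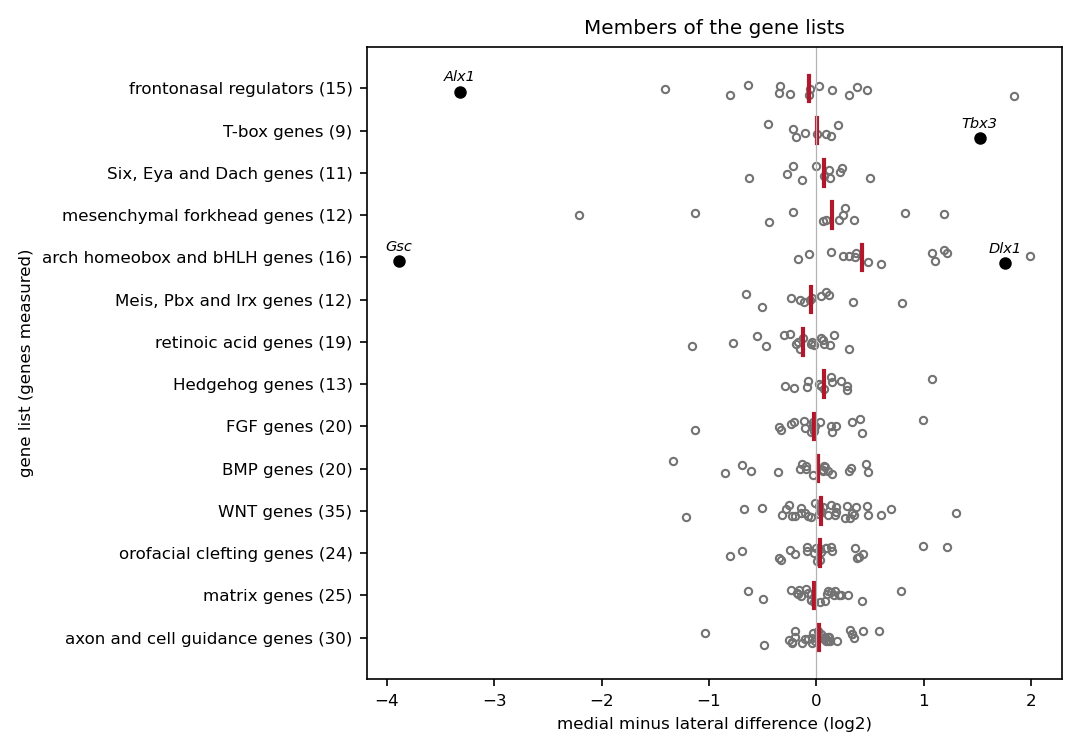
The x axis gives the medial minus lateral difference on the log2 scale of each measured member of 14 gene lists, which run down the y axis with their measured numbers. Filled points are called genes and vertical bars are list medians. The 4 called members are Alx1, Tbx3, Gsc and Dlx1, and the list medians run between -0.123 and 0.425.

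Markers of other cell types gave 0 calls in limma, but their levels varied between libraries. At an unadjusted p under 0.05, 2 of 8 macrophage genes and 1 of 7 muscle precursor genes were lower and no marker was higher. Of all 19938 genes, 1088 were lower and 671 higher at that threshold. The mean log2 ratio of 14 surface ectoderm markers was -0.273, -0.574, -0.434 and -0.363 in the medial libraries, against -0.459, -0.122, 0.599 and -0.181 in the lateral libraries. For 10 endothelial markers it was 0.137, 0.163, -0.108 and 0.545 in the medial libraries, against 0.382, 0.224, 1.177 and 0.666 in the lateral libraries. Lateral library 3 was the highest of the 8 for ectodermal, placodal, neuroepithelial, neuronal, endothelial and macrophage markers, but not for erythroid or muscle precursor markers. It was also the highest for the cranial mesenchyme markers, at 1.834 against 0.355 to 1.506 in the others. The same held for the mean over all genes, at 0.081 against -0.361 to -0.079. For the neuronal markers lateral library 3 was at 1.091, against -0.6 to 0.532 in the others. The cause of these high values was not tested. The part of lateral library 3 in the differences was not tested beyond leaving it out. Without it, 29 genes were called higher and 75 lower. Without medial library 2, 15 were called higher and 8 lower.

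The neuroepithelium beneath each prominence, captured in 4 libraries a region, gave a separate comparison along the same axis. The titles of the 4 libraries grouped as medial name the lateral prominence, while their other labels name the medial one. Of 19938 genes, 35 were higher under the medial prominence (0.176%) and 0 were lower in limma, with 1543 at an unadjusted p under 0.05 (7.74%). None of the 35 named genes was called there. The medial minus lateral difference in neuroepithelium was -0.18 for Tbx3, -0.31 for Alx1, 0.04 for Gsc and -0.25 for Mab21l2.

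Whether the difference in the prominences itself departed from that in the neuroepithelium was tested for every gene, and 8 of 19938 were called (0.0401%), with 10.3% at an unadjusted p under 0.05. Named genes among them were Ucma (0.85 ± 0.19 SE, adjusted p = 0.0407), Lrrc58 (0.93 ± 0.18, adjusted p = 0.00726), Rnase2b (0.53 ± 0.11, adjusted p = 0.0315) and Hpgd (-2.37 ± 0.47, adjusted p = 0.009). For Ucma, Lrrc58 and Rnase2b the prominence difference was positive and that in neuroepithelium was -0.10, -0.36 and -0.09. For Hpgd the neuroepithelium difference was 0.62. Tbx3 (1.70, adjusted p = 0.0583) and Tmem38b (4.91, adjusted p = 0.0588) missed the threshold, as did Alx1 (-3.01, adjusted p = 0.196) and Gsc (-3.93, adjusted p = 0.23).

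**Figure D5:**
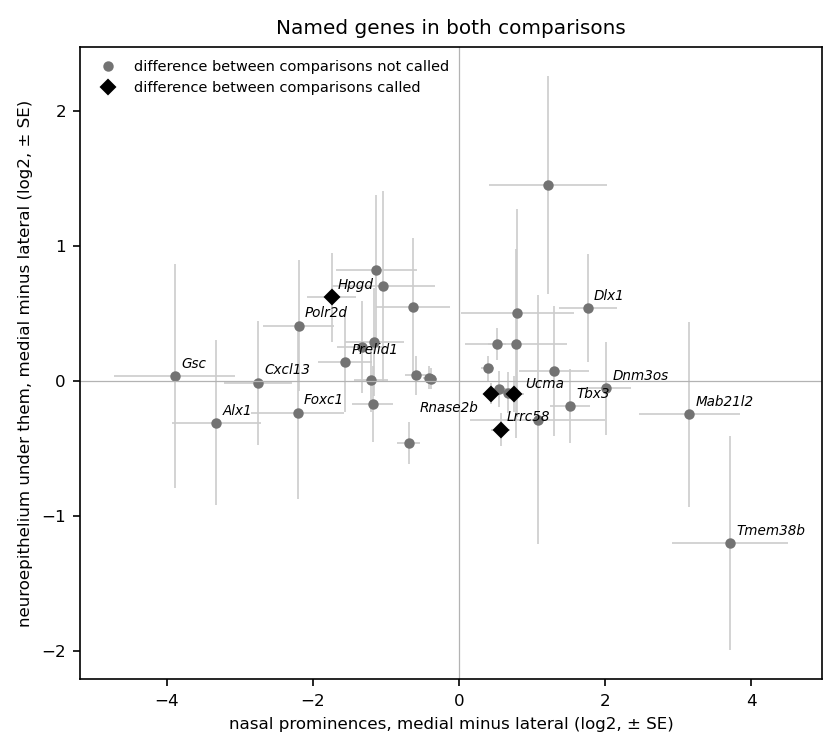
The x axis gives the medial minus lateral difference of each named gene in the prominences and the y axis that in the neuroepithelium beneath them, both on the log2 scale with bars of 1 SE. Diamonds mark the 4 named genes whose 2 differences departed from each other at an adjusted p under 0.05. Gsc and Tmem38b span the x axis from -3.89 to 3.71, while Gsc is at 0.04 on the y axis.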

How the data were processed

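Per the labels' protocols, frozen sections of embryos (plug day as E0.5) were captured by laser, and RNA was amplified and labelled with biotin. RMA (no version) and the mm9 build are named in the submitters' processing notes. The table deposited by the authors holds a linear ratio per probe set and sample. Over 21 of the samples each probe set had a median ratio of 1, to within 6e-08, and no label describes this baseline. Ratios ran from 0.01 (62 values) to 144. The log2 of each deposited ratio was computed.

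Of 35557 probe sets, 28856 had values and 21789 of these had 1 gene symbol. The probe set with the highest mean stood for each of 999 genes with several, which left 19938 genes. Group means of 22 groups (102 samples, with 1 E9.5 sample of conflicting labels left out) were fitted with limma 3.58.1 in R 4.3.3 with 80 residual degrees of freedom and eBayes, without covariates. Same-numbered medial and lateral libraries deviated together with r = 0.031, 0.273, 0.481 and -0.295 across genes, so the numbers were not taken as pairs. No depth or detection call was used.

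Genes were named by rule: up to 12 called genes a direction with the largest difference and no overlap between groups, filled up by the smallest p; every called list member or the largest of a list without one; and Tbx3 and Alx1. Predicted genes, receptors of smell and small RNAs were passed over. Members, lists and tests were chosen with earlier results of these data known. List genes without a single-gene probe set were not analysed here. In simulated data for this comparison, 200 of 19938 genes were changed. Of 2-fold changes 54% were recovered, and of 4-fold changes 80%. Of 138 calls, 4 were unchanged genes. The simulated noise of a gene had the same SD in all groups, apart from a factor for each array. The pooled fit also takes the spread of a gene as equal between groups. In the data it differed for Cxcl13 (SD 0.16 medial, 2.86 lateral). The simulation therefore cannot show how often genes with such unequal spread are called wrongly. The alternatives tried were array weights, quantile normalization, a variance trend, other probe set and sample choices, covariates, a replicate block and each library left out. Sequences and coordinates are from RefSeq.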

Additional observations from a re-analysis of the deposited data

Results flagged for a closer look

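In 70 groups of 4 libraries of named genes, 10 had 1 library far from the other 3 by Dixon's criterion, which chance gives in about 1 group in 20. That rate is for independent groups. These groups share the same 8 libraries, and the genes were chosen by their values in them, so the count cannot be judged against it. Lateral library 3 was the one apart for 6 genes. It stood at 4.44 for Hpgd (others 0.72 to 0.93), 3.48 for Gsc (others 5.06 to 5.25), 1.22 for Lum (others -0.10 to -0.01), 0.55 for Crabp2 (others -0.01 to 0.04), -0.70 for Meis2 (others -1.57 to -1.43) and 0.10 for Ppp1r9a (others -0.15 to -0.11). Medial library 2 stood apart for Prelid1 at -5.19 (others -1.16 to -0.58) and Crabp2 at -3.15 (others -0.55 to -0.13). Lateral library 4 was at 3.09 for Lhx8 (others -0.47 to -0.13), and medial library 1 was at -0.21 for Cxcl13 (others 0.09 to 0.13).

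The medial minus lateral difference departed between prominences and underlying neuroepithelium, by a test of that departure, for Ucma (0.85), Lrrc58 (0.93), Rnase2b (0.53) and Hpgd (-2.37). Without lateral library 3 the Hpgd difference between the prominences was -0.84 (adjusted p = 0.0781), and without medial library 2 that of Rnase2b was 0.29 (adjusted p = 0.108).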

How the results depend on the processing

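Against 12 genes called higher and 11 lower in the medial prominence, quantile normalization gave 27 and 16, array weights 45 and 57, the E10.5 groups alone 5 and 1, and array SD as a covariate 29 and 60. With the compared groups alone there were 0 and 0, and with the replicate number as a block in that fit, which left 3 residual degrees of freedom, also 0 and 0, with 1427 genes at an unadjusted p under 0.05. Chosen after the data were seen, the omission of medial library 2 and lateral library 3 together gave 22 and 60, and the median of widely expressed genes as a covariate gave 100 and 170. Leaving out 1 library gave 7 to 47 higher and 7 to 76 lower. The extremes were lateral 1 (7 higher, 12 lower), medial 4 (47 and 67), medial 1 (13 and 7) and medial 3 (39 and 76), while lateral 2 gave 15 and 22. The cause was not tested. A variance trend (16 and 15), the mean of probe sets (13 and 15) and omission of genes at the smallest ratio (12 and 11) moved the counts less. Of the 23 calls, 20 remained after quantile normalization, 23 with array SD and 5 with E10.5 groups alone.

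Over 20 named called genes and 19 alternatives, 258 of 380 values stayed called, and no direction reversed. In the neuroepithelium 35 calls became 10 with quantile normalization and 125 with array weights. The 8 departures between the comparisons became 19 with array weights. No detection limit is known, so weak probe sets cannot be told from absent ones.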

Other observations

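Lateral libraries 1 and 3, the only ones high in Cxcl13, also held the highest values of several listed genes, which are named here after their values were seen. The share of all genes with this pattern was not counted, so the values are a description. Rspo1, a secreted WNT enhancer, was at 0.13, -0.42, -0.03 and 1.09 in the medial libraries, against 3.12, 0.12, 2.12 and 0.27 in the lateral libraries. Alas2, an enzyme of haem synthesis in erythroid cells, was at 0.86, 1.05, 0.73 and 0.53 in the medial libraries, against 3.41, 0.47, 2.47 and 0.79 in the lateral libraries. Its medial minus lateral difference, -0.992, was the lowest of 5 erythroid genes measured. Their median difference was 0.179, so most of them differed in the opposite direction. Etv4 was at -0.05, -0.38, 0.24 and 0.52 in the medial libraries, against 2.75, -0.15, 1.81 and 0.45 in the lateral libraries. None of these genes was called between the groups. Medial library 4 held the highest medial values of Alx1, Gsc, Foxc1 and Lhx8, at 4.63, 3.39, 1.61 and 4.16.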
